A study of Mus musculus with 16 samples.

Results

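Some genes divided the hearts of RBM20 P635L mice from those of wild-type mice and were not called for a response to the virus the mice had received. The 9 genes described here are Hist1h2al, Gm6969, Ifi202b, Gm42743, Nudc-ps1, Rbpj-ps3, Gm10093, Gm3716 and Nnt, out of 56953 genes in the count table. Of these, 8 were chosen from these same counts, because every P635L library lay at least 4-fold away from every wild-type (WT) library. Nnt was added from general knowledge, as a gene that differs between C57BL/6 substrains. The difference between genotypes in the first 8 is therefore a description and carries no test. The choice spanned both virus groups of each genotype, so a gene that the virus moved far toward the other genotype could not have been kept, and the virus values of these 8 are a description too. Their sequences, their neighbours and the coding genes they resemble were not used in the choice.

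The series holds left ventricle RNA from 16 mice, 4 in each of 4 groups, with males and females used. By their Xist and Y-linked counts, every P635L library looked male, and the libraries that looked female were all WT. Mice were WT or homozygous for the P635L mutation of Rbm20, which encodes a splicing factor of the heart, and both genotypes carry the background label Bl6J. At 4 weeks of age every mouse received 1e12 viral genomes of adeno-associated virus AAV9 by the tail vein, and hearts were taken at 16 weeks of age. The virus delivered either Tnpo3 cDNA, for a nuclear import receptor (groups WT Tnpo3 and P635L Tnpo3), or a control construct, pCAG-iCre-T2A-eGFP, in which the CAG promoter drives Cre recombinase and green fluorescent protein (groups WT Ctr and P635L Ctr). The control hearts therefore also carried a virus. Breeding of the mice, such as use of littermates or of separate colonies, is not given in the sources used here, so genotype and colony cannot be told apart.

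Processed pseudogenes are copies of a messenger RNA that was written back into the genome. They lack the introns of the parent gene, and a copy that is young differs from its parent at few bases. Such a copy can be present in some mouse strains and absent from others. C57BL/6J and C57BL/6N, both called C57BL/6, differ in a known set of genes. The best known is Nnt, the nicotinamide nucleotide transhydrogenase of the inner mitochondrial membrane, which makes NADPH and feeds the peroxide defence of heart mitochondria. In C57BL/6J a run of exons that follows the sixth has been lost from it. Ifi202b, a DNA-binding member of the interferon-induced Ifi200 family, is likewise known to be silenced by a deletion at its 5′ end in C57BL/6J.

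By the annotation (GENCODE M21, GRCm38), 5 of the 9 members are processed pseudogenes, namely Hist1h2al, Gm6969, Nudc-ps1, Rbpj-ps3 and Gm10093. Gm42743 and Gm3716 are long non-coding RNAs, and Ifi202b and Nnt code for protein. Each pseudogene was aligned to all GENCODE M21 transcripts, and its closest coding gene was 97.7 to 99.7% identical over the whole pseudogene. Hist1h2al, of 339 bases, had 2 mismatches to Hist2h2aa1 and to Hist2h2aa2, which encode the replication histone H2A and tied as closest. Gm6969, of 342 bases, was closest to Cox7a2l, an assembly factor for respiratory supercomplexes, with 2 mismatches and 6 bases that Cox7a2l lacks. Nudc-ps1, of 551 bases, had 2 mismatches to Nudc, a dynein-associated co-chaperone, and lacked 4 of its bases. Rbpj-ps3, of 1441 bases, had 4 mismatches to Rbpj, the DNA-binding factor of Notch signalling, and Gm10093, of 1444 bases, had 9 mismatches to Hdac1, a histone deacetylase. The parents of Hist1h2al and Gm6969 were found by this alignment after the counts had been seen.

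The pairs are shown over 60 aligned columns inside the coding sequence of the parent, chosen where most differences fall, because these few bases are what lets a read be assigned to one copy. Capitals mark the bases that differ between the copies or are present in one of them only, and all lines run 5′ to 3′ along the messenger strand. The pseudogene windows lie at chr13:51202917-51202976 (minus strand) for Hist1h2al, chr12:24638765-24638824 (minus) for Gm6969, chr8:29286779-29286834 (minus) for Nudc-ps1, chr6:46529816-46529875 (minus) for Rbpj-ps3 and chr17:78492012-78492071 (plus) for Gm10093, all in GRCm38.
Hist1h2al: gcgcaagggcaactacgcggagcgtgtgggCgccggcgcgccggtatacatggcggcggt
Hist2h2aa2: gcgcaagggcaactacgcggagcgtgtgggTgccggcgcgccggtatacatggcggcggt
Gm6969: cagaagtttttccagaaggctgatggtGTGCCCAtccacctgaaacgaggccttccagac
Cox7a2l: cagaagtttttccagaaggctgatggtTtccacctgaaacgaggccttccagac
Nudc-ps1: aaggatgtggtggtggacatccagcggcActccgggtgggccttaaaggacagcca
Nudc: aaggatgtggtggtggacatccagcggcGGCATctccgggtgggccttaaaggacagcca
Rbpj-ps3: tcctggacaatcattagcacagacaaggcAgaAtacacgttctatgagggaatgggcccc
Rbpj: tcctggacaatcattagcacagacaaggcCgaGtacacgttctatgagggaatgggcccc
Gm10093: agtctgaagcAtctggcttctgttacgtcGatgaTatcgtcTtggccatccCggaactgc
Hdac1: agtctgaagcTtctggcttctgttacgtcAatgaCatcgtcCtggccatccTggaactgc
The longest stretch without any difference ran from 123 bases in Hist1h2al to 638 bases in Rbpj-ps3. A read inside such a stretch fits both copies, and how the authors treated reads that fit 2 places is not given in the sources used here. Counts of these 5 genes and of their parents are uncertain for that reason.

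Library totals ran from 28493249 to 85922669 counts, and every P635L library held at least 37803840. Levels are given as counts or as CPM, counts per 1000000 counts of the library, scaled by TMM factors. Ventricular cardiomyocyte markers were high in every group, with group medians of their summed level from 54500 to 82200 CPM, lowest in P635L Ctr and highest in WT Ctr. In WT Ctr replicate 2, WT Ctr replicate 4 and WT Tnpo3 replicate 4 the gene ENSMUSG00000119584 held 20.0%, 21.2% and 22.7% of counts, against at most 5.30% elsewhere. High Xist marked 3 WT libraries (replicate 4 of WT Ctr, replicates 2 and 4 of WT Tnpo3) and 0 of 8 P635L libraries. Those 3 libraries had 0 counts of Y-linked genes, and the 8 P635L libraries had 6296 to 15105. Sex is therefore in part confounded with genotype. WT Ctr replicate 1 had a summed T cell marker level (Cd3e, Cd3g and Cd8a) of 56.4 CPM, against 0.495 to 3.46 CPM in the other libraries. Calls on members, parents, neighbours and listed genes were also made without these libraries, and lost calls are given beside the result.

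Hist1h2al had 122, 114, 113 and 112 counts in WT Ctr replicates 1 to 4 and 105, 129, 132 and 80 counts in WT Tnpo3. All 8 P635L libraries had 0 counts, which together allow a level of up to 0.00697 CPM, taking 3 counts over their summed depth as the limit, for counting error only. The WT means were 3.86 ± 0.812 CPM (SD, n = 4) under the control virus and 3.19 ± 0.429 CPM (SD, n = 4) under the Tnpo3 virus. With 3 counts over the group as the floor, the level was at least 294-fold lower in P635L Ctr than in WT Ctr and at least 209-fold lower in P635L Tnpo3 than in WT Tnpo3. Although its symbol is that of a histone gene, the annotation calls it a processed pseudogene.

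Gm6969 was the most abundant member. It had 1869, 1849, 2338 and 924 counts in WT Ctr, and 2799, 1496, 1075 and 1335 counts in WT Tnpo3. P635L Ctr libraries had 31, 57, 19 and 43 counts and P635L Tnpo3 libraries 24, 11, 18 and 16 counts. Every P635L library held some reads, and the lowest WT library was 33.1-fold above the highest P635L library in CPM. WT Ctr averaged 58.7 ± 21.9 CPM against 0.640 ± 0.162 CPM for P635L Ctr (SD, n = 4 each). WT Tnpo3 averaged 49.2 ± 24.5 CPM against 0.365 ± 0.157 CPM for P635L Tnpo3 (SD, n = 4 each).

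Ifi202b had 174, 91, 100 and 87 counts in WT Ctr and 123, 129, 147 and 79 counts in WT Tnpo3. P635L Ctr libraries held 2, 9, 2 and 0 counts, and P635L Tnpo3 libraries 9, 1, 8 and 3. Its WT hearts therefore all expressed the gene at a low level, with means of 3.83 ± 1.73 CPM in WT Ctr and 3.43 ± 0.647 CPM in WT Tnpo3 (SD, n = 4 each), while the highest P635L library reached 0.220 CPM. The gap between the lowest WT and the highest P635L library was 11.5-fold.

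Gm3716, a long non-coding RNA of 6 exons, had 139, 83, 160 and 180 counts in WT Ctr and 161, 178, 162 and 121 in WT Tnpo3. P635L Ctr libraries had 6, 23, 3 and 7 counts, and P635L Tnpo3 libraries 4, 8, 39 and 16. P635L Tnpo3 replicate 3 stood highest among the mutant hearts at 0.759 CPM and set the gap of 4.51-fold between genotypes, which was 11.1-fold without that library. With library totals in place of TMM factors the gap was 3.10-fold, and 7 of the members stayed at 4-fold or more.

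The other 4 separated members had lower levels, with WT group means of 0.703 to 3.14 CPM. Nudc-ps1 had 54 to 174 counts in the WT libraries and 3 to 13 in the P635L libraries, and Gm10093 had 43 to 96 and 2 to 9. Nudc-ps1 averaged 3.14 ± 1.28 CPM for WT Ctr and 0.122 ± 0.0366 CPM for P635L Ctr, and Gm10093 2.13 ± 0.773 and 0.112 ± 0.0502 CPM (SD, n = 4 each). Rbpj-ps3 had 17 to 37 counts in the WT libraries and 0 to 2 in the P635L libraries, where 6 of 8 libraries had none and the sum was 3 counts. Gm42743 had 17 to 37 counts in the WT libraries and a single read in the P635L hearts. The 4 P635L Ctr libraries had 0, which makes Gm42743 at least 74.0-fold lower there than in WT Ctr. The groups did not overlap between genotypes in any of these 4 genes, which the rule that chose them required.

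**Figure D1:**
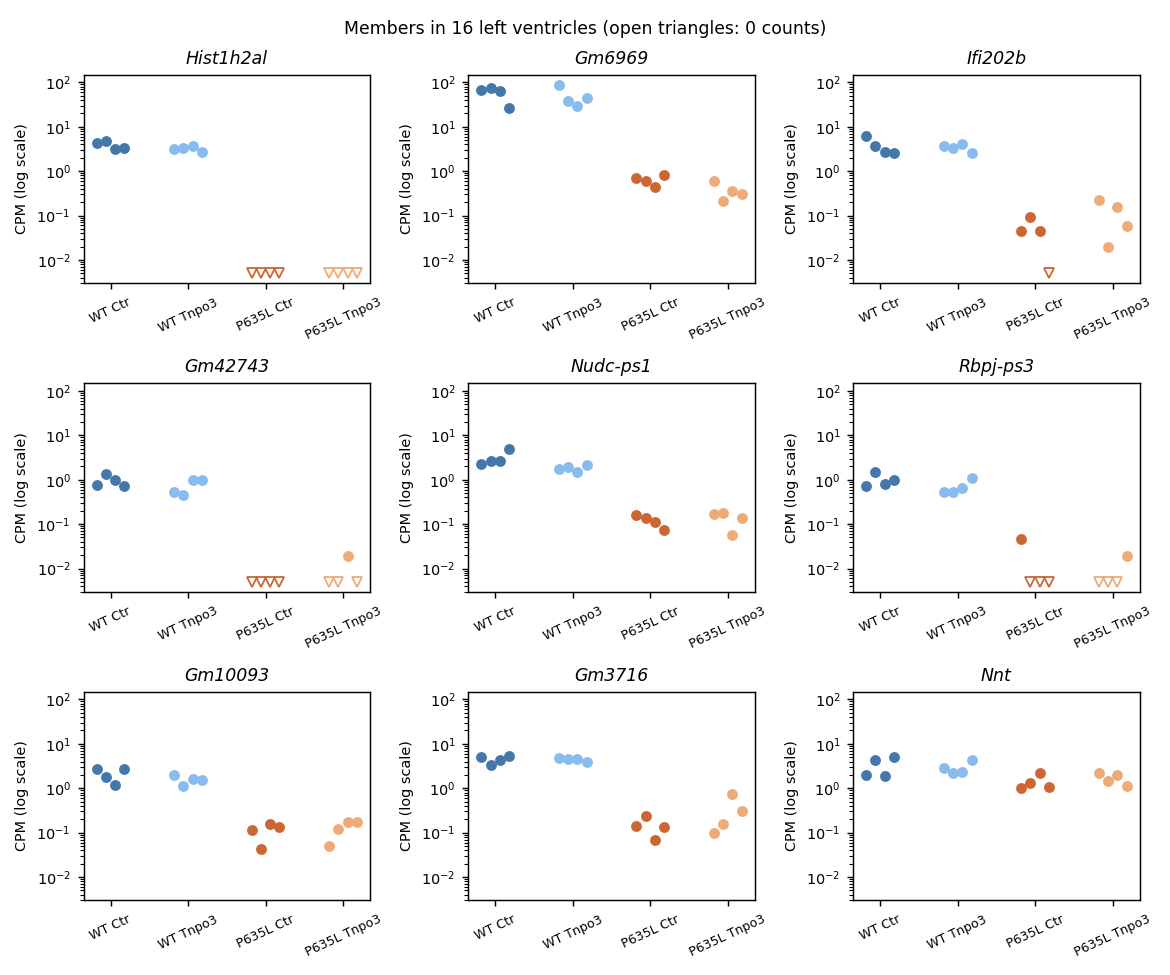
Level of each of the 9 members in CPM on a log axis, 1 point per library, in the 4 groups; open triangles at the foot mark libraries with 0 counts. In the first 8 panels all WT points lie above all P635L points, while for Nnt the genotypes overlap.

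Applied to every gene of the table, the 4-fold rule kept 11 genes, 0.0193% of 56953, with values under the CPM of 3 counts raised to it. The 8 members are among them, and since the rule chose them nothing is read from that count. Of the 11 genes, 10 were lower in P635L. Just inside the threshold lay Casq1 at 4.26-fold and just outside Aqp4 at 3.92-fold. The 3 other genes inside were Gm7879 at 4.98-fold, Gm5898 at 4.45-fold and Casq1, the calsequestrin of fast skeletal muscle, which alone was higher in P635L. The members' likeness to other genes was measured by this gap over 16 libraries, and the 7 next genes were Aqp4, Hopx, Gm9951, Atp1a4, AC131675.2, Tes3-ps and A330102I10Rik, at 2.85 to 3.92-fold. Among the 10 non-members, Gm7879, Gm5898, Aqp4, Atp1a4, AC131675.2 and Tes3-ps had, like the members, few or no counts in any P635L library, with at most 21 counts.

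Of these 10 genes, Casq1, Hopx and A330102I10Rik were called for the virus in mutant hearts, where 3.88% of all genes were called. Gm7879 and AC131675.2 had too few counts there for an estimate. The 10 genes were picked for their gap in these same libraries, so nothing is read from this count. Casq1 fell by 1.84 ± 0.22 (log2, SE) from P635L Ctr to P635L Tnpo3 (edgeR adjusted p = 0.000143). Hopx, a heart homeodomain protein, rose by 3.00 ± 0.29 (edgeR adjusted p = 2.47e-05), and A330102I10Rik fell by 1.13 ± 0.28 (edgeR adjusted p = 0.0277).

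**Figure D2:**
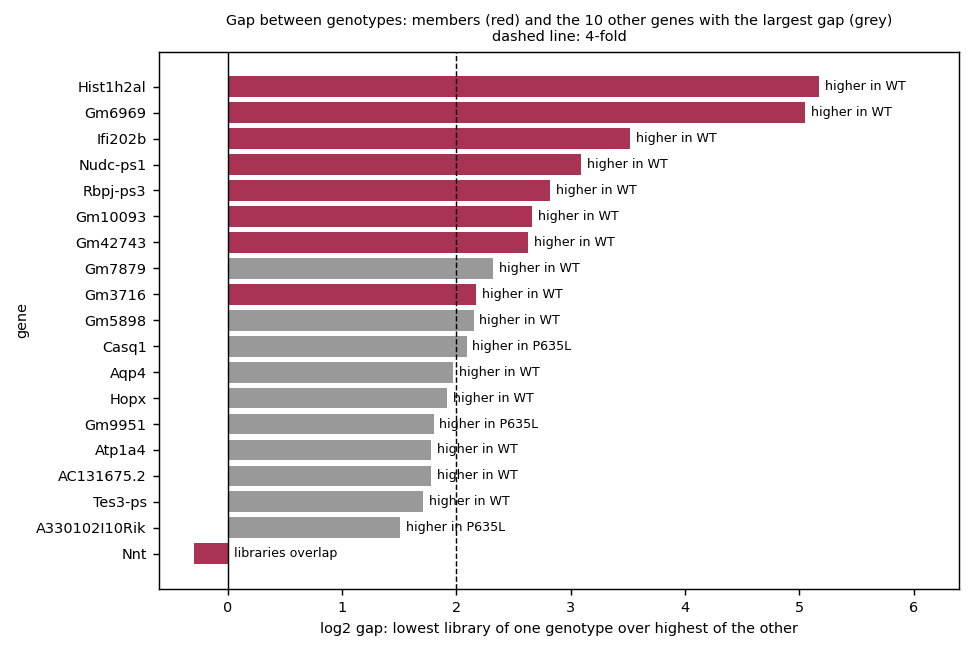
Log2 gap between genotypes, the lowest library of the higher genotype over the highest library of the lower one, for the 9 members (red) and the 10 other genes with the largest gap (grey); the dashed line is 4-fold. Hist1h2al and Gm6969 have gaps of 5.17 and 5.05, and Nnt lies at -0.30 because its libraries overlap.

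The effect of the Tnpo3 virus within each genotype was fitted over 18662 genes. All 9 members passed the filter on low counts, several of them through their WT libraries alone. The 8 separated members were kept for lying apart in all 16 libraries, which limits how far the virus can have moved them, so nothing is read from their counts of calls. In WT hearts, 0 of 9 members were called between WT Tnpo3 and WT Ctr by edgeR, against 0.00536% of all genes, which is a single gene, and 0 of 9 by DESeq2. An unadjusted p under 0.05 was reached by 1 member, Nudc-ps1, at -0.78 ± 0.31 (log2, SE), with an adjusted p of 1.0 in edgeR. Of all 18662 genes tested, 597 had an unadjusted p under 0.05 in this comparison. The 4 WT Ctr libraries of Nudc-ps1 all lay above its 4 WT Tnpo3 libraries. How many of all genes lay apart in this way was not counted, so nothing is read from it. Leaving out 1 library gave Nudc-ps1 differences of -0.91 to -0.45. The -0.45 came without WT Ctr replicate 4, the highest Nudc-ps1 library at 5.04 CPM. The fitted WT differences ran from -0.78 for Nudc-ps1 to -0.01 for Gm3716, beside a median of -0.02 over all genes. The sign of those near 0 depended on the setting.

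In mutant hearts, 0 of 9 members were called between P635L Tnpo3 and P635L Ctr by edgeR, against 3.88% of all genes, and 0 of 9 by DESeq2. Gm3716 alone had an unadjusted p under 0.05, at 1.10 ± 0.48 (log2, SE), and its 4 libraries per group overlapped. Without P635L Tnpo3 replicate 3 the difference of Gm3716 was 0.30 (edgeR adjusted p = 0.801). Of all 18662 genes tested, 3426 had an unadjusted p under 0.05 in this comparison, and DESeq2 called 1388. Ifi202b stood at 1.03 ± 0.67 and Gm6969 at -0.84 ± 0.51, on few reads: the summed counts of P635L Ctr were 13 for Ifi202b and 150 for Gm6969, and those of P635L Tnpo3 were 21 and 69. Nudc-ps1 was at 0.13 ± 0.41, Gm10093 at 0.29 ± 0.48 on the log2 scale. Nnt, which the separation rule did not choose, stood at 0.23 ± 0.36 (edgeR adjusted p = 0.804). Hist1h2al, Gm42743 and Rbpj-ps3 were at or under the floor in both mutant groups, so a response to the virus could not be seen at this depth. For all members the standard errors, 0.25 to 0.67, are wide enough that a moderate response could have been missed. The p-values measure the spread between mice, with 1 library each.

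**Figure D3:**
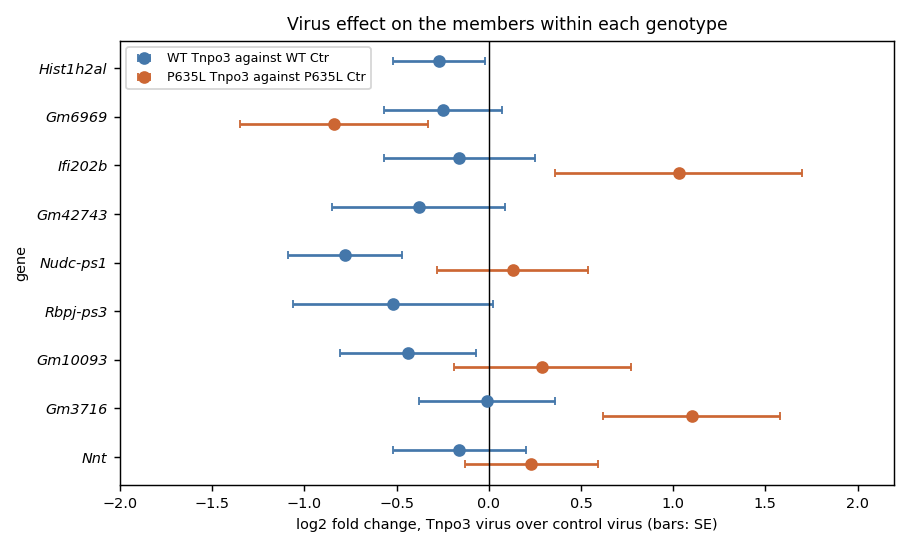
Fitted log2 fold change of the Tnpo3 virus over the control virus for each member, with its SE, in WT hearts (blue) and P635L hearts (orange); the 3 genes at the floor in both mutant groups have no orange point. Estimates in WT lie between -0.78 and -0.01, and those in P635L between -0.84 and 1.10.

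None of the 4 expressed parents of the pseudogenes was called lower in P635L. Cox7a2l averaged 234 ± 17.8 CPM for P635L Ctr and 246 ± 24.8 CPM for WT Ctr, a difference of -0.07 ± 0.12 (log2, SE; edgeR adjusted p = 0.748), and differed by 0.23 ± 0.12 between the Tnpo3 groups (edgeR adjusted p = 0.278). Nudc differed by 0.01 ± 0.14 under the control virus (edgeR adjusted p = 0.985) and by 0.12 ± 0.14 under the Tnpo3 virus (edgeR adjusted p = 0.683). Neither passed the test, which does not show that they are equal.

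Rbpj and Hdac1 moved the other way from their copies. Rbpj was higher in P635L, at 19 ± 1.62 CPM against 11 ± 2.03 CPM under the control virus (SD, n = 4 each), a log2 difference of 0.80 ± 0.13 (edgeR adjusted p = 0.00045), and by 0.69 ± 0.13 under the Tnpo3 virus (edgeR adjusted p = 0.00622). Hdac1 was higher at 31.0 ± 1.13 CPM against 21.1 ± 2.55 CPM, by 0.55 ± 0.11 (edgeR adjusted p = 0.00169), and by 0.39 ± 0.11 under the Tnpo3 virus (edgeR adjusted p = 0.0493). In both genes the libraries of the genotypes did not overlap. The share of all genes called was 14.2% under the control virus and 3.72% under the Tnpo3 virus. The second Hdac1 call was lost in 14 of 22 alternative settings, where its adjusted p reached 0.157, and the second Rbpj call in 1 of 22. That 1 setting left out the 3 libraries with high Xist, all of them WT. There the adjusted p in edgeR was 0.0577 for Rbpj and 0.0875 for Hdac1, so neither was called under the Tnpo3 virus. Summed fibroblast marker levels had group medians of 1260 CPM in P635L Ctr, 627 CPM in WT Ctr, 741 CPM in P635L Tnpo3 and 655 CPM in WT Tnpo3, and their part in the rise of Rbpj and Hdac1 was not tested. In bulk RNA, fewer cells of a type and less RNA per cell cannot be told apart.

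The gain of these 2 parents was larger than the loss of their copies. Between WT Ctr and P635L Ctr, Rbpj gained 8.04 CPM while Rbpj-ps3 fell by 0.996 CPM, and Hdac1 gained 9.85 CPM while Gm10093 fell by 2.02 CPM. The sum of copy and parent went from 12 to 19 CPM for Rbpj and from 23.3 to 31.1 CPM for Hdac1. For Gm6969 and Cox7a2l the sum went from 304 ± 46.5 to 235 ± 17.9 CPM under the control virus and from 287 ± 43.3 to 281 ± 22.0 CPM under the Tnpo3 virus.

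Expressed as a share of the pair, Gm6969 held a median of 19.7% of the counts of Gm6969 and Cox7a2l in the WT libraries, with a range of 10.7 to 25.4%. In the P635L libraries its median share was 0.206%, and the highest was 0.331%. Gm10093 held a median of 7.22% of the pair with Hdac1 in WT and 0.403% in P635L, Rbpj-ps3 6.88% and 0% of the pair with Rbpj, and Nudc-ps1 1.73% and 0.102% of the pair with Nudc.

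Hist2h2aa1 and Hist2h2aa2, the genes closest to Hist1h2al, had 0 counts in all 16 libraries. Replication histone messages mostly end without a poly(A) tail and the libraries were made from poly(A) RNA. The part of this, or of reads that fit both genes, in the 0 counts was not tested. With no parent counts, the share of a pair could not be formed for Hist1h2al. Of 6 other H2A genes tested, 1 was called between P635L Ctr and WT Ctr, H2afv, a variant histone, at -0.37 ± 0.10 (log2, SE; edgeR adjusted p = 0.0231), beside 14.2% of all genes. Its call was lost in 5 of 22 settings, among them without WT Ctr replicate 1 (edgeR adjusted p = 0.0573). None was called between the Tnpo3 groups by edgeR, by DESeq2 or at an unadjusted p under 0.05, a count of 0 in each case. In the list of 13 cell cycle genes, 0 were called under the control virus by edgeR or DESeq2, 2 had an unadjusted p under 0.05, and the median difference was -0.56 against -0.05 over all genes. Under the Tnpo3 virus that median was 0.00, with 0 called by edgeR or DESeq2 and 0 at an unadjusted p under 0.05.

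**Figure D4:**
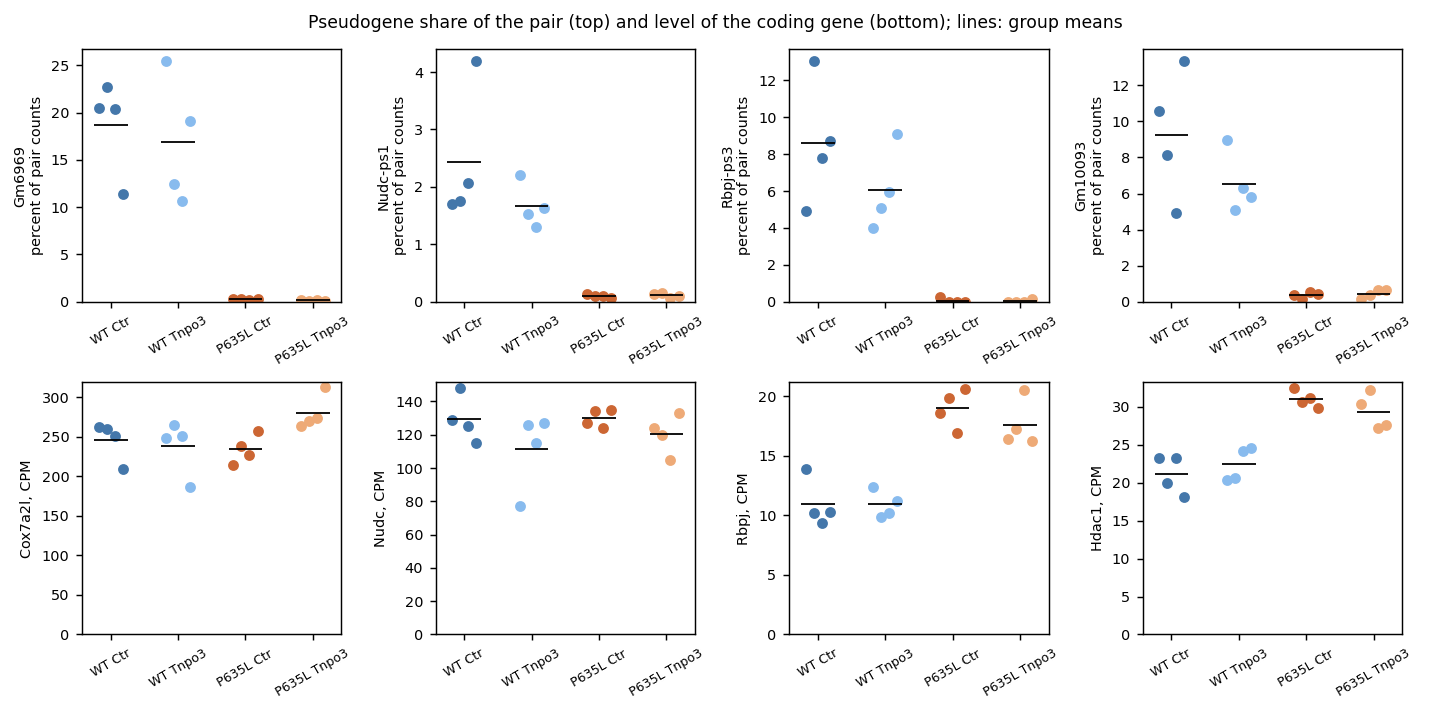
Top row, counts of each pseudogene as a percentage of the counts of the pseudogene and its parent together; bottom row, level of the parent in CPM; 1 point per library and lines at group means. The shares fall to near 0 in all P635L libraries, while the P635L points of Nudc stay within the WT range, those of Cox7a2l overlap it, and Rbpj and Hdac1 are higher in P635L.

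The members lie far apart. In the coordinates of the count table (GRCm39), Ifi202b is at chr1:173790134-173810310, Gm42743 at chr3:96177037-96186317, Gm3716 at chr5:64751135-64768077 and Rbpj-ps3 at chr6:46506288-46507728. Nudc-ps1 lies at chr8:29776459-29777009, Gm6969 at chr12:24688668-24689009, Hist1h2al at chr13:51356763-51357101 and Gm10093 at chr17:78799011-78800454. Nnt, at chr13:119471984-119545533, is 68.1 Mb from Hist1h2al, the only 2 members on 1 chromosome. The 9 members thus occupy 8 chromosomes, and none is on chromosome 19, where Rbm20 lies at chr19:53665737-53855511. The 11 separated genes hold 0 genes of chromosome 19. The share of all genes on that chromosome was not counted, so nothing is read from this 0.

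Distances between parents and other members on the same chromosome varied. Hist2h2aa1 is 23.6 kb from Gm42743, Cox7a2l is 5.01 Mb from Gm10093 and Rbpj is 10.9 Mb from Gm3716. The parents Hdac1 and Nudc are 3.82 Mb apart on chromosome 4. These distances were looked at after the parents were known.

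Overlap with other genes was small in counts. Hist2h2bb, on the same strand as Gm42743 with 226 shared exonic bases, had 0 counts in all 16 libraries, and Gm20628, on the opposite strand with 257 shared bases, had 0 to 8 counts. ENSMUSG00002075045, opposite to Hist1h2al over 109 bases, had at most 1 count. Rbpj-ps3 sits inside Cntnap2, a neurexin family gene on the opposite strand, with no shared exonic base, and Cntnap2 had 0 to 3 counts. The libraries were made with a stranded kit, but whether counting used strand is not given in the sources used here.

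Genes next to the members were tested for the same genotype difference. Within 1 Mb of the members, 173 other genes were tested, and 7 of them, 4.05%, were called in both genotype comparisons with the same sign, against 2.5% of all genes tested. Under the control virus 16.2% of them were called, and under the Tnpo3 virus 7.51%, against the 14.2% and 3.72% of all genes. The count was 0 of 13 near Gm6969, 0 of 15 near Ifi202b, 0 of 1 near Nudc-ps1 and 0 of 2 near Rbpj-ps3, which are too few to compare with 2.5%.

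The 7 neighbours were Tlr6, ENSMUSG00000120381, Ankrd35, Tmem267, Heatr5b, Prkd3 and S1pr3. Tlr6, a Toll-like receptor for microbial lipopeptides, lies near Gm3716 and was lower in P635L, at 1.10 ± 0.0665 against 3.36 ± 1.24 CPM under the control virus (SD, n = 4 each). Its log2 difference was -1.60 ± 0.25 (edgeR adjusted p = 0.000301), and -1.56 ± 0.25 under the Tnpo3 virus (edgeR adjusted p = 0.00181). It kept both calls in all 22 alternative settings. Near Gm10093, Heatr5b (-0.63 and -0.90) and Prkd3, a protein kinase D (-0.48 and -0.69), fell on the log2 scale in both comparisons, while the transcript ENSMUSG00000120381 rose by 1.26 and 1.28. S1pr3, a sphingosine-1-phosphate receptor near Hist1h2al, fell (-0.48 and -0.67), as did Tmem267, near Nnt (-0.81 and -0.88). Ankrd35, near Gm42743, rose by 0.78 and 1.19. Except for Tlr6, each lost at least 1 of its calls in some alternative setting, with adjusted p-values up to 0.0788 for Prkd3 and 0.249 for Ankrd35.

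Within 1 Mb of the parents, loci added after the data were seen, 8 of 200 tested genes, 4.00%, were called in both comparisons, beside 2.5% of all genes. They include Rbpj and Hdac1 themselves and Ankrd35, already counted near Gm42743. Gm12977, near Nudc, was lower in P635L, at -4.44 ± 0.94 (edgeR adjusted p = 0.0034) and -3.81 ± 0.91 (edgeR adjusted p = 0.0271) on the log2 scale, from 0.406 ± 0.277 CPM in WT Ctr (SD, n = 4). Gm10441, near Rbpj, rose by 1.84 ± 0.49 (edgeR adjusted p = 0.0164) and 3.01 ± 0.49 (edgeR adjusted p = 0.00177). Map3k6 and Cnksr1 near Nudc and Ccdc28b near Hdac1 rose by 0.51 to 1.11 in the 2 comparisons. Under the control virus the Cnksr1 call was lost in 13 of 22 settings, that of Ccdc28b in 7 and that of Gm10441 in 1. Under the Tnpo3 virus the calls of Map3k6, Ccdc28b, Gm12977 and Cnksr1 were lost in 7, 6, 4 and 1 settings. Around Rbm20 itself, 1 of 18 tested genes was called under the control virus and 0 under the Tnpo3 virus, beside 14.2% and 3.72% of all genes.

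Ifi202b belongs to a family of genes of which many bind DNA. Of 15 listed Ifi200 genes, 11 besides Ifi202b were tested. Under the control virus 1 was called, Ifi204, lower in P635L at 6.82 ± 1.53 against 12.9 ± 5.03 CPM (SD, n = 4 each; log2 difference -0.92 ± 0.24; edgeR adjusted p = 0.0135), beside 14.2% of all genes. Its adjusted p was 0.0518 without WT Ctr replicate 1, and the call was lost in 2 of 22 settings. Under the Tnpo3 virus 0 were called by edgeR, 1 by DESeq2, and 4 had an unadjusted p under 0.05. Among all 18662 genes tested there, edgeR called 3.72%, DESeq2 called 1458 genes and 3758 had an unadjusted p under 0.05. The median difference of the 11 relatives was -0.21 under the control virus and 0.43 under the Tnpo3 virus, against -0.05 and -0.02 over all genes. The abundant Mndal averaged 43.5 ± 10.5 CPM for P635L Ctr and 40.5 ± 9.05 CPM for WT Ctr (SD, n = 4 each; edgeR adjusted p = 0.754). Between the viruses in mutant hearts 1 of the 11 relatives was called, beside 3.88% of all genes. It was Ifi207, which rose by 0.80 (edgeR adjusted p = 0.0288), a call lost in 5 of 22 settings. In that comparison 10 of the 11 had a positive difference, with a median of 0.39 against 0.01 over all genes.

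Interferon-stimulated genes were measured beside it because the family is induced by interferon. Of 16 such genes, 5 fell and 0 rose in P635L Ctr against WT Ctr, where 14.2% of all genes were called. These were Irf7 at -1.22 ± 0.28, Ifit1 at -1.29 ± 0.32, Ifit3 at -1.20 ± 0.35, Oas1a at -1.10 ± 0.25 and Bst2 at -0.69 ± 0.20 on the log2 scale, with edgeR adjusted p-values of 0.00636 to 0.032. Without WT Ctr replicate 1, the library with T cell markers, 3 were called, and Bst2 and Ifit3 had adjusted p-values of 0.0839 and 0.0794 in edgeR. Without the 3 libraries with high Xist 4 were called, and without the 3 rich in ENSMUSG00000119584 there were 6. The list's median was -0.65 under the control virus and -0.35 under the Tnpo3 virus. In the latter comparison 0 were called by edgeR, 1 by DESeq2 and 4 had an unadjusted p under 0.05. Among all 18662 genes tested there, edgeR called 3.72%, DESeq2 called 1458 genes and 3758 had an unadjusted p under 0.05. The part of interferon signalling in the level of Ifi202b was not tested.

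Nnt was not chosen for separation. It had 55, 105, 67 and 172 counts in WT Ctr, 92, 89, 83 and 134 in WT Tnpo3, 43, 126, 99 and 57 in P635L Ctr and 88, 72, 101 and 57 in P635L Tnpo3. P635L Ctr averaged 1.41 ± 0.581 CPM against 3.29 ± 1.61 CPM for WT Ctr (SD, n = 4 each), and the libraries of these groups overlapped. P635L Tnpo3 averaged 1.66 ± 0.485 CPM against 2.95 ± 1.02 CPM for WT Tnpo3 (SD, n = 4 each), with no overlap. Nnt was named as a substrain marker and not by the separation rule, so its genotype test is given, although earlier results of these data were known by then. The difference of -1.22 ± 0.36 (log2, SE) passed the test under the control virus (edgeR adjusted p = 0.0301), and that of -0.83 ± 0.36 under the Tnpo3 virus did not (edgeR adjusted p = 0.201). Without the 3 libraries rich in ENSMUSG00000119584 the first difference was -0.40 and not called (edgeR adjusted p = 0.505). Those 3 libraries held the highest Nnt levels of their groups. Without the 3 libraries with high Xist it was -0.90 (edgeR adjusted p = 0.111), and with the replicate number as a block -1.20 (edgeR adjusted p = 0.0586). Leaving out 1 library gave -0.94 to -1.52, and the call was lost without WT Ctr replicate 2 or 4 and without P635L Ctr replicate 1, 2 or 4.

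The gene count of Nnt leaves out part of its message. The annotation of the count table holds a second model of Nnt, with 17 exons and 3339 exonic bases, all of which lie inside the 7037 bases of the counted model. That second model had 0 counts in all 16 libraries, so bases shared by both gave no counts to it, and 3698 bases belong to the counted model alone. The deposited splicing tables give junction reads from the same libraries and were used to look at the exons themselves. Their lists do not say which library is which within a group, so the values are given by listed position.

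Reads across the junction of exon 6 to exon 7 were present in both genotypes. Exons are numbered here in the 17-exon model. The reference assembly was made from C57BL/6J, so this annotated junction is the one formed where the lost exons would lie. It had 61, 87, 80 and 133 reads at the 4 listed positions of WT Ctr and 104, 249, 172 and 262 reads in P635L Ctr. In WT Tnpo3 it had 138, 186, 44 and 103 reads. The table for P635L Tnpo3 lists no event from which it can be taken. Summed over a group and scaled by depth, the junction had 2.94 RPM (reads per 1000000 TMM-scaled gene counts) in WT Ctr, 3.40 in WT Tnpo3 and 3.35 in P635L Ctr.

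Neighbouring junctions were read at like levels, also in both genotypes. Exon 5 to exon 6 had 2.65 RPM in WT Ctr, 2.73 in WT Tnpo3 and 2.23 in P635L Ctr, and exon 4 to exon 5 had 3.21, 3.22 and 2.71. The ratio of the groups was therefore nearer to 1 across these junctions than in the gene count, whose summed level was 1.38 CPM for P635L Ctr against 3.25 CPM for WT Ctr. Further along, exon 9 to exon 10 had 6.32 RPM in WT Ctr, 7.77 in WT Tnpo3, 4.26 in P635L Ctr, and P635L Tnpo3 had 2.03. The 2 junctions on either side of exon 5 together had 5.87, 5.94, 4.94 and 2.52 in the same order. P635L Tnpo3 was lowest in both. These are sums over libraries with no test.

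The 3′ exons of Nnt were read far more deeply in WT hearts than its 5′ exons. In the authors' deposited table of the 2 WT groups, exon 15 had 1720, 1681, 1751 and 2036 inclusion reads in WT Ctr and 3205, 3513, 1706 and 1158 in WT Tnpo3, against 99, 176, 143 and 303 and 239, 335, 69 and 181 for exon 5. An event enters a table only when reads in those groups define it, and exon 15 is not listed for the P635L groups, so nothing can be said of it there. None of the Nnt exon events reached an FDR of 0.05 in the authors' deposited tables.

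**Figure D5:**
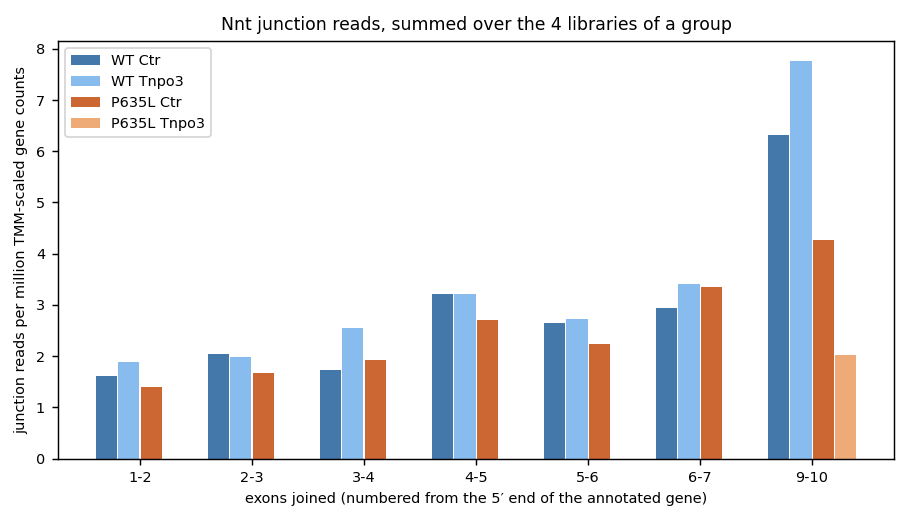
Junction reads of Nnt in RPM, reads per 1000000 TMM-scaled gene counts, summed over the 4 libraries of each group, by the exons joined. Junction 6-7 is read at 2.94 to 3.40 RPM in the 3 groups whose table gives it, and P635L Tnpo3 has a value for junction 9-10 only.

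Other genes known to differ between C57BL/6 substrains were given as a list. Of the genes on the list besides Nnt, 5 were tested. Mmrn1, an adhesive protein of platelets and endothelium, was called under the control virus at 0.59 ± 0.19 (log2, SE; edgeR adjusted p = 0.045) and stood at -0.06 ± 0.19 under the Tnpo3 virus (edgeR adjusted p = 0.897). Its call was lost in 10 of 22 settings, among them without WT Ctr replicate 1 (edgeR adjusted p = 0.0917) and with the 3 ENSMUSG00000119584-rich libraries left out (edgeR adjusted p = 0.133). Under the Tnpo3 virus 0 of 5 were called by edgeR, 1 by DESeq2, and 3 had an unadjusted p under 0.05. Of all genes, edgeR called 14.2% under the control virus and 3.72% under the Tnpo3 virus. In the latter comparison DESeq2 called 1458 of the 18662 genes tested, and 3758 had an unadjusted p under 0.05. A list of 5 tested genes is too short to compare with these shares. Cyfip2, an actin regulator, averaged 75.9 ± 35.8 CPM for P635L Ctr and 123 ± 9.60 CPM for WT Ctr (SD, n = 4 each; edgeR adjusted p = 0.148). Wdfy1 was at 22.7 ± 5.76 and 16.9 ± 4.39 CPM (edgeR adjusted p = 0.299), and between the Tnpo3 groups at 29.3 ± 8.02 and 16.0 ± 5.06 CPM, a log2 difference of 0.87 ± 0.26 (edgeR adjusted p = 0.0669). Crb1 was low, at 0.228 ± 0.146 and 0.433 ± 0.210 CPM (edgeR adjusted p = 0.29). Entpd4, Entpd4b, Gabra2 and Nlrp12 were too low to test. A change of sequence without a change of level, as some of these genes carry, is not visible in counts.

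Partners of Nnt in the NADPH and peroxide pathway of mitochondria were given as a list of 14 genes besides it. Under the control virus 3 fell and 1 rose in P635L. Idh2, which makes mitochondrial NADPH from isocitrate, fell by 0.51 ± 0.13 (edgeR adjusted p = 0.0148), Prdx5, a peroxiredoxin, fell by 0.56 ± 0.13 (edgeR adjusted p = 0.00699) and Sod2, the mitochondrial superoxide dismutase, fell by 0.52 ± 0.15 (edgeR adjusted p = 0.024) on the log2 scale. Mthfd2l, an enzyme of mitochondrial folate metabolism, rose by 0.52 ± 0.14 (edgeR adjusted p = 0.0145). The 4 of 14 called stand beside 14.2% of all genes called in that comparison, and the list's median was -0.03 against -0.05 for all genes. The Sod2 call was lost in 4 of 22 settings, among them without WT Ctr replicate 1 (edgeR adjusted p = 0.0546), and those of Idh2 and Mthfd2l in 1 each. Under the Tnpo3 virus 0 were called by edgeR, 2 by DESeq2 and 4 had an unadjusted p under 0.05. Among all 18662 genes tested there, edgeR called 3.72%, DESeq2 called 1458 genes and 3758 had an unadjusted p under 0.05. Without the 3 libraries rich in ENSMUSG00000119584, edgeR called 5 of the 14 listed genes there, and 1887 of all genes.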

How the data were processed

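Per the submitters' processing notes, reads were handled with STAR 2.7.9a, featureCounts 2.0.6 and DESeq2 on GRCm39. The authors deposited raw counts per gene, DESeq2 tables with log2 fold changes, p-values and adjusted p-values, and rMATS tables with junction read counts, inclusion fractions, inclusion difference scores and FDR values, per the file headers. Members and lists were chosen with earlier results of these data known. The tests used edgeR 4.0.16 under R 4.3.3 (quasi-likelihood, TMM, filterByExpr, 1 mean per group over 16 libraries, 12 residual degrees of freedom, two-sided, Benjamini-Hochberg over 18662 genes, called at an adjusted p under 0.05). The script was tested on simulated data. DESeq2 1.42.0, median-ratio factors, no filter, a replicate block and left-out libraries were alternatives. Symbols came from the supplied table for 52029 genes and from the deposited splicing tables for 33. Pseudogenes were aligned with blastn 2.17.0 to GENCODE M21 transcripts (GRCm38), from which the printed sequences come. Nnt junctions were solved from overlapping events, whose junction 4 to 5 came out equal by 2 routes in all 4 WT Ctr libraries. Named genes are the members, neighbours within 1 Mb called in both genotype comparisons, the 10 other genes with the largest gap, and list genes (all of a list of up to 12, otherwise those called). Ifi203 and Mndal were named in addition, for their level. A gene of the substrain list is not reported here. Deviations of same-numbered libraries correlated at -0.26 to 0.55 (median -0.06, 24 pairs) and those of other libraries at -0.33 to 0.25 (72 pairs), so the numbers were not taken as pairs.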

Additional observations from a re-analysis of the deposited data

Results flagged for a closer look

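Nudc-ps1 in WT Ctr replicate 4 stood at 5.04 CPM, far from the 3 other libraries of its group, which lay between 2.24 and 2.64 CPM. It was the only case among 30 member and group sets above the floor, where the gap of the extreme library exceeded Dixon's 95% critical share of the range. Chance gives about 1 such library in 20 groups. The same library is rich in ENSMUSG00000119584 and has high Xist. The part of these in its Nudc-ps1 level was not tested.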

How the results depend on the processing

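No member was called for the virus in either genotype under any of the 22 alternative settings, which their choice in part fixed. The count of 11 separated genes became 46 at 2-fold (8 members), 4 at 8-fold (4 members) and 7 with a floor of 10 counts (6 members). Adding each pseudogene's counts to its parent's, a choice made after seeing the data, left 7 genes (4 members). Leaving out 1 library gave 11 to 15 separated genes, always with 8 members, and leaving out the libraries rich in ENSMUSG00000119584 or with high Xist gave 16 and 15. Within 5 Mb of the members, 24 of 700 genes were called in both genotype comparisons.

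Counts of all genes changed moved more. Between P635L Tnpo3 and WT Tnpo3, 694 genes became 1887 without the 3 libraries rich in ENSMUSG00000119584, 386 without the 3 with high Xist, 1458 with DESeq2, and 280 to 1220 with 1 library left out. Between P635L Tnpo3 and P635L Ctr, 724 became 1482, 1282, 1388 and 282 to 1022 in the same order. Between WT Tnpo3 and WT Ctr, 1 became 0, 0, 4 and 1 to 3.

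Some uncalled differences near 0 changed sign. The virus effect of Gm3716 in WT (-0.01) became 0.01 without the filter and with DESeq2, 0.02 without the rich libraries, 0.16 without the high-Xist ones and -0.10 to 0.06 with 1 library left out. That of Nnt in WT became 0.39 without the rich libraries and -0.42 to 0.12 with 1 left out. With 1 left out, Ifi202b in WT ran from -0.31 to 0.20, and in P635L Nudc-ps1 ran from -0.03 to 0.38 and Gm10093 from -0.03 to 0.54. Nudc between genotypes became -0.01 without the high-Xist libraries and ran from -0.05 to 0.10 (control virus) and -0.02 to 0.19 (Tnpo3 virus). The causes were not tested.

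The replicate block gave 2487 genes for P635L Ctr against WT Ctr in place of 2653, and ended the Nnt call (adjusted p = 0.0586); same-numbered samples share only a number. Low counts limit the members most in P635L, where 3 of them had at most 3 counts over 8 libraries although these libraries were the deeper ones.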
